A study of Mus musculus with 10 samples.

Results

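Vascular endothelial growth factors (VEGFs) and their receptors are described here across the retinas of untreated mice. The set holds 9 genes, taken from the deposited count table by gene symbol: 4 ligands (Vegfa, Vegfb, Vegfc and Pgf), 3 receptor tyrosine kinases (Kdr, Flt1 and Flt4) and 2 neuropilin co-receptors (Nrp1 and Nrp2). They are 9 of the 36115 genes in the table, and all 9 were among the 18965 genes that passed the filter on low counts.

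The series compares retinas of naive mice aged 3 months on a C57BL/6 background, with 5 wild-type libraries (W1 to W5) and 5 libraries (K1 to K5) whose genotype is given as B6.129S2-Il6tm1Kopf/J, a line in which the interleukin-6 gene is disrupted in every cell of the animal. The labels name no further allele or agent, and no litter, sex or batch. The names W1 to K5 follow accession order and pair no libraries. Separate animals are not stated either. The p-values therefore weigh results only against the spread among these libraries. That spread may be technical in part and need not be the spread among animals. The disruption is in all cells, so no vessel-specific loss was made.

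VEGF ligands are secreted dimers that bind receptor tyrosine kinases on vessel walls and on some neurons and glia. VEGF-A signals mainly through VEGFR2, the product of Kdr, while VEGFR1, the product of Flt1, binds VEGF-A, VEGF-B and placental growth factor tightly, passes on a weaker signal and also exists as a soluble decoy. VEGFR3, the product of Flt4, binds VEGF-C, and neuropilins hold VEGF ligands or class 3 semaphorins beside their main receptors. In the retina VEGF-A comes largely from glia, neurons and pigment epithelium, follows oxygen supply, and is the main target of drugs against diabetic and age-related vessel disease.

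Library totals ran from 30433373 to 38857374 reads. Rod photoreceptor markers summed to 57900 to 81700 CPM across the 10 libraries, where CPM is the usual count of a gene's reads relative to the scaled library total, so the defining genes of the labelled tissue were present. Il6 itself had 0 to 1 reads in the wild-type libraries and 3 to 7 reads in the libraries labelled knockout, which goes against the labels. Gene-level counts do not separate the interrupted part of Il6 from the rest, and the groups are therefore called by their labels. Across all genes, 2.03% were called different at an edgeR adjusted p under 0.05.

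None of the 9 genes passed that test, against the 2.03% over all genes. At an unadjusted edgeR p under 0.05 there were 2 of the 9, Kdr and Nrp1, where 13.8% of all genes reached that level. DESeq2 called 1 of the 9, which was Kdr, against 3.70% of all genes, and limma-voom called 0. No member had groups that did not overlap, which was seen in 3.48% of all genes, 1.76% higher and 1.72% lower in libraries labelled knockout. Of the 9 genes, 1 had an adjusted p under 0.05 in the authors' deposited table, again Kdr, against 3.37% of genes with a value there, and the adjusted p of the other 8 ran from 0.286 to 0.999. The median log2 fold change of the 9 was -0.03, beside 0.0018 over all tested genes.

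Levels of different genes were compared per kilobase of merged exons (RPKM), since longer transcripts collect more reads. On that scale the ligands Vegfa, at 35.1 ± 3.73 RPKM, and Vegfb, at 30.5 ± 1.73 RPKM, were highest (SD, n = 10 libraries). The receptors Kdr, at 22.7 ± 4.01 RPKM, and Flt1, at 10.5 ± 0.919 RPKM, came next. Nrp2 stood at 2.31 ± 0.216 RPKM, Vegfc at 1.14 ± 0.230, Nrp1 at 0.976 ± 0.208, Flt4 at 0.925 ± 0.177 and Pgf at 0.298 ± 0.125 RPKM. The ligand genes Vegfa and Vegfb and the receptor kinase genes Kdr and Flt1 thus had the 4 highest RNA levels.

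**Figure D1:**
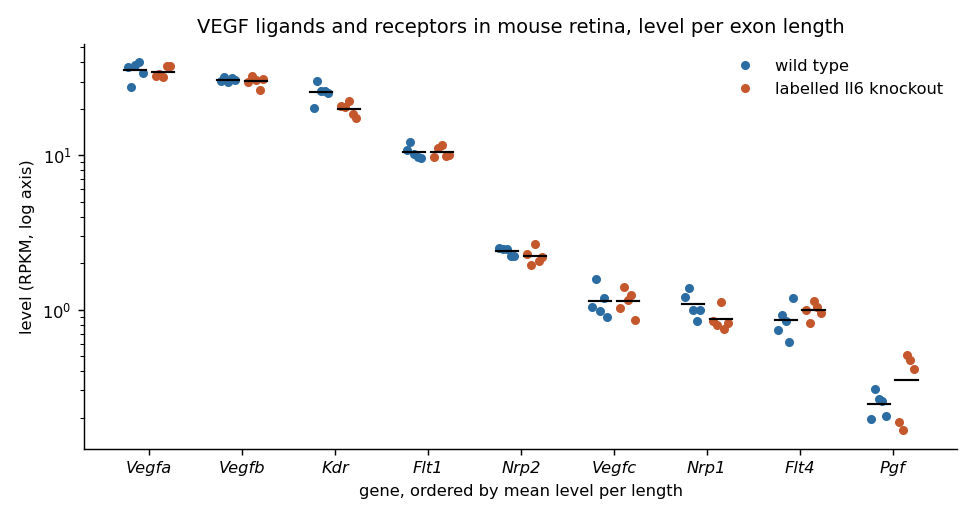
Level per exon length (RPKM, log axis) of each gene in each library, ordered by mean, with blue points for wild type, orange points for libraries labelled knockout and a bar at each group mean. Vegfa, Vegfb, Kdr and Flt1 lie above 9 RPKM in all 10 libraries, and the other 5 genes lie below 3 RPKM.

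Neighbours in this order were compared by their ratio within each library. Of the 8 neighbouring pairs, 6 differed by an exact two-sided sign-flip permutation test, adjusted over the pairs. Vegfa exceeded Vegfb 1.15-fold and in 9 of 10 libraries (adjusted p = 0.0287, exact permutation test). Kdr exceeded Flt1 2.14-fold in all 10 libraries, and Flt1 exceeded Nrp2 4.55-fold in all 10. Both ratios had an exact permutation p of 0.00195, the smallest the test allows, and an adjusted p of 0.00312. Vegfc over Nrp1, at 1.17-fold, and Nrp1 over Flt4, at 1.05-fold, did not pass (exact permutation test, adjusted p = 0.0937 and 0.564). With the longest transcript as the length, those 3 genes changed places, with Nrp1 the sixth, Flt4 the seventh and Vegfc in rank 8. On that length Vegfb stood at 38.2, Kdr at 34.7 and Flt1 at 20.6 RPKM, and Nrp1 at 2.62 against 1.14 RPKM for Vegfc. The folds and p-values above therefore hold for merged exons, and the p-values do not cover the choice of length.

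Vegfa encodes VEGF-A, the ligand that drives vessel growth and leak (chromosome 17, 46016993 to 46032369, GRCm38). W1 to W5 held 160, 119, 165, 171 and 145 CPM. K1 to K5 held 139, 143, 138, 162 and 162 CPM. W2 was the lowest of all libraries, and the values of the labelled knockout group lay inside the wild-type range. The group means were 152 ± 20.6 and 149 ± 12.1 CPM (SD, n = 5). The log2 fold change, libraries labelled knockout over wild type, was -0.03 ± 0.09 (SE, edgeR adjusted p = 0.929), with a 95% interval of -0.23 to 0.17. Differences above 1.12-fold or below 0.853-fold lie outside that interval. Gene-level counts do not tell the splice forms of Vegfa apart.

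Vegfb encodes VEGF-B, a ligand of VEGFR1 linked to cell survival and lipid uptake (chromosome 19, 6982473 to 6987651). It was the steadiest member in wild type, at 47.9 to 51.6 CPM and a coefficient of variation of 3.15%. Libraries labelled knockout ran from 42.3 CPM in K4 to 52.2 CPM in K2, on both sides of the wild-type range. The log2 fold change was -0.04, with a 95% interval of -0.18 to 0.10 and an edgeR adjusted p of 0.856.

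Vegfc encodes VEGF-C, the lymphatic growth factor that binds VEGFR3 (chromosome 8, 54077606 to 54187096). Wild type held 2.79 ± 0.671 CPM (SD, n = 5), with W2 the highest library at 3.89 CPM. The labelled knockout group held 2.79 ± 0.510 CPM, and reads numbered 72 to 126 a library. The log2 fold change was 0.0011, with a 95% interval of -0.41 to 0.41 and an edgeR adjusted p of 0.999.

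Pgf encodes placental growth factor, which binds VEGFR1 alone among the receptor kinases (chromosome 12, 85166635 to 85177790). It had the fewest reads of the 9 genes, 17 to 53 a library. Wild-type libraries held 0.573, 0.896, 0.766, 0.749 and 0.592 CPM, and K1 to K5 held 0.545, 0.480, 1.48, 1.38 and 1.2 CPM. The labelled knockout group was split, with 3 libraries above every wild-type library and 2 below every one. Its mean was 1.02 ± 0.471 CPM against 0.715 ± 0.134 CPM (SD, n = 5). On the log2 scale the fitted difference was 0.50 ± 0.32 (SE, edgeR adjusted p = 0.536). The 95% interval of -0.18 to 1.18 leaves a fold between 0.883 and 2.26, so these libraries leave the size and direction of its difference unresolved.

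**Figure D2:**
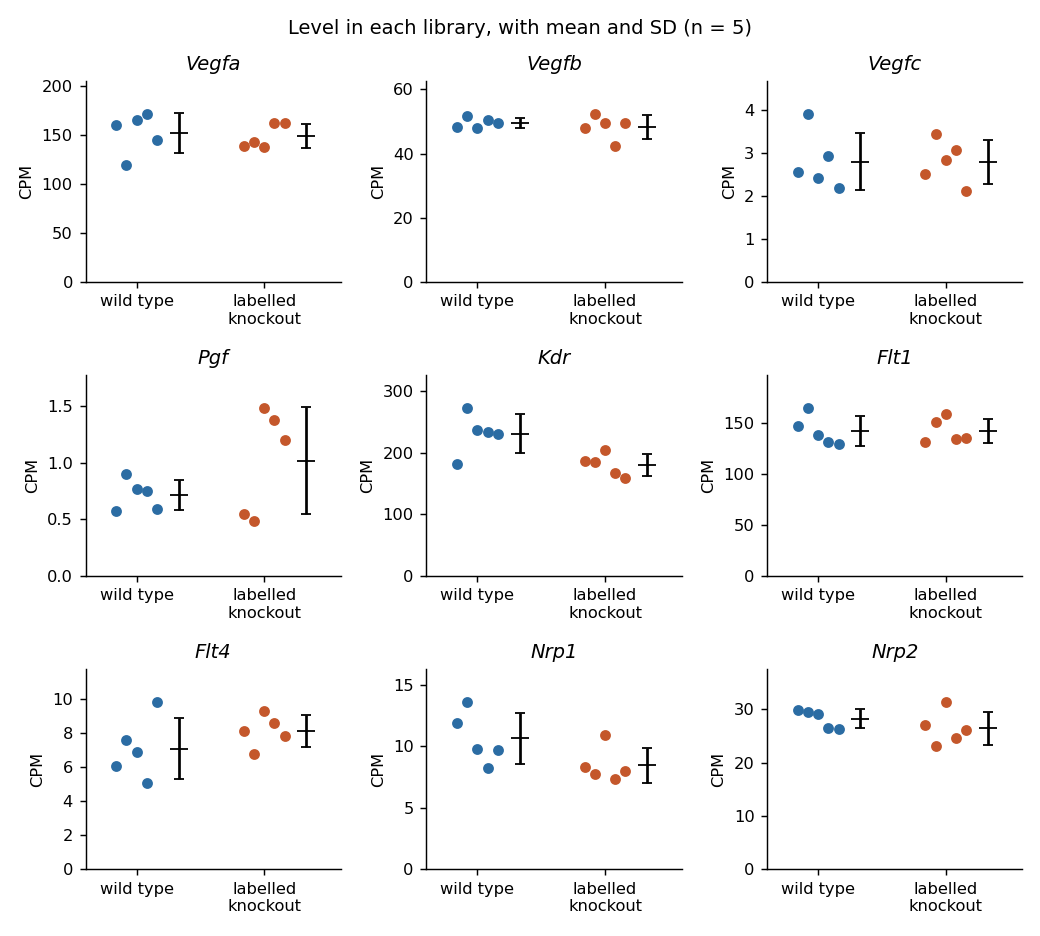
Level in CPM of each of the 9 genes, with 1 point a library (from left to right libraries 1 to 5 of the group) and the group mean ± SD at its right. In Kdr 4 wild-type libraries lie above all 5 libraries labelled knockout and W1, at 182 CPM, lies among them, while in Pgf the labelled knockout libraries fall on both sides of wild type.

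Kdr encodes VEGFR2, the main signalling receptor for VEGF-A (ENSMUSG00000062960.10, chromosome 5, 75932827 to 75978458). W1 to W5 held 182, 272, 236, 234 and 230 CPM. K1 to K5 held 187, 184, 204, 167 and 158 CPM. All wild-type libraries except W1 lay above every library labelled knockout, and W1 lay inside the range of that group. The means were 231 ± 32.2 and 180 ± 18.0 CPM (SD, n = 5), and the fitted fold was 0.781. The log2 fold change of -0.36 ± 0.10 (SE) had a 95% interval of -0.57 to -0.15, an unadjusted edgeR p of 0.00248 and an edgeR adjusted p of 0.0842. Kdr was thus the largest difference among the members in units of its error, and it did not pass the threshold over all genes.

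The call of Kdr turned on the method and on W1. DESeq2 gave an adjusted p of 0.0231, edgeR with no low-count filter gave 0.0287, and edgeR without W1 gave 0.0195 with a log2 fold change of -0.43. In the authors' deposited table Kdr had a log2 fold change of -0.32 and an adjusted p of 0.0308, and did not carry their mark of significance. Without K5, whose label gives another second index, the log2 fold change was -0.31 and the edgeR adjusted p 0.202. Over all 18 alternatives the log2 fold change kept its sign, from -0.43 to -0.29, and the adjusted p ran from 0.0195 to 0.281. In a bulk sample, fewer cells that express a gene and less RNA per cell cannot be told apart.

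**Figure D3:**
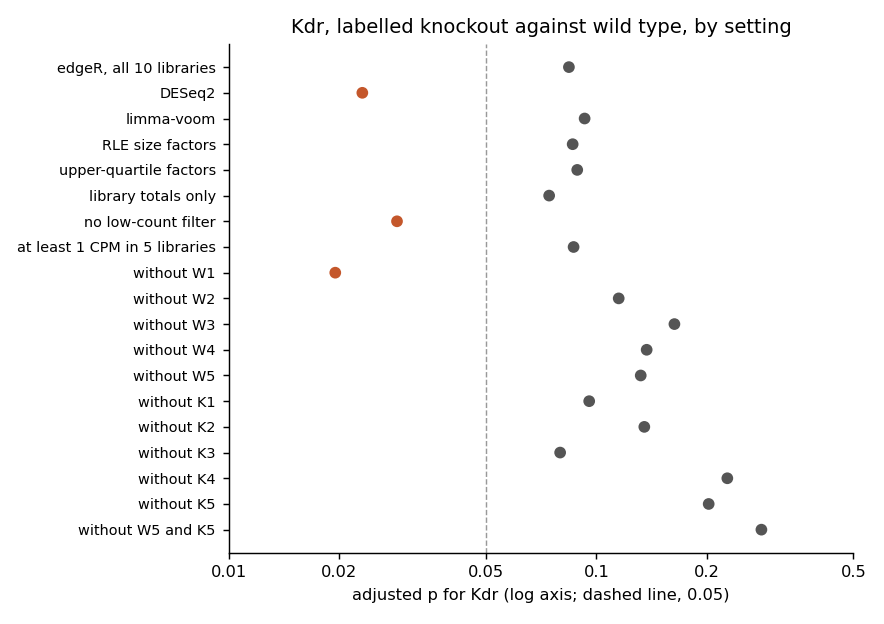
Adjusted p of Kdr (log axis) for edgeR on all 10 libraries and for 18 alternatives, with the threshold of 0.05 as a dashed line and orange points under it. Of the alternatives, 3 lie under the line, DESeq2, no low-count filter and the fit without W1.

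Flt1 encodes VEGFR1, the high-affinity receptor and soluble decoy (chromosome 5, 147561604 to 147726011). W1 to W5 held 147, 164, 138, 131 and 129 CPM. K1 to K5 held 131, 151, 158, 134 and 135 CPM. All 5 libraries labelled knockout lay inside the wild-type range, with means of 142 ± 14.3 and 142 ± 11.9 CPM (SD, n = 5). The log2 fold change was 0.0012, with a 95% interval of -0.17 to 0.17 and an edgeR adjusted p of 0.997. Both Kdr and Flt1 lie on the chromosome of Il6, at 45.9 and 118 Mb from it. Of 56 other tested genes within 5 Mb of Kdr, 1 was called (1.79%, against 2.03% of all genes), and 11 had an unadjusted edgeR p under 0.05 (13.8% of all genes). That gene, named after its values were seen, was the GABA receptor subunit Gabra2, 4.84 Mb from Kdr. Its log2 fold change was -0.89 (edgeR adjusted p = 0.000606), and a link to the difference in Kdr was not tested.

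The ratio of Flt1 to Kdr sets the gene of VEGFR1 against the gene of VEGFR2 within a library, and does not depend on how libraries are scaled. Gene-level counts do not tell the soluble decoy from the membrane form of Flt1. Per exon length, W1 to W5 had ratios of 0.540, 0.403, 0.392, 0.374 and 0.374. K1 to K5 had ratios of 0.470, 0.548, 0.518, 0.535 and 0.571. W1 again lay among the libraries labelled knockout, and the other wild-type libraries lay below all of them. The ratio was 1.28-fold higher in libraries labelled knockout, with an exact two-sided permutation p of 0.0317 and an adjusted p of 0.111 over the 7 ratios tested, which did not pass. Without W1 the log2 difference went from 0.35 to 0.45 and the adjusted p to 0.0278 (exact permutation test). W1 was the only wild-type library that overlapped the other group. Leaving it out separates the groups completely, so the lower p-value follows from that choice and adds no support.

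The sequences upstream of these 2 receptor genes are shown because both genes encode vessel receptors for VEGF-A and the ratio of their levels is described above. Each is the 240 bases that end 10 bases before the RefSeq start on GRCm38.p6, on the minus strand, at chr5:75978466-75978705 for Kdr and chr5:147726022-147726261 for Flt1. Capitals mark the GC box GGGCGG and the ETS core GGAA, each searched on both strands, with no overlap between matches.
Kdr: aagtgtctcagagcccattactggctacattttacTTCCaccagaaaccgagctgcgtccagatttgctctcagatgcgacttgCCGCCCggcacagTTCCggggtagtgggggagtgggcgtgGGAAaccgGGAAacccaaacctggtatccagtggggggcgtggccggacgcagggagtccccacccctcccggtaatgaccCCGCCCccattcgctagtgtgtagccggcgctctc
Flt1: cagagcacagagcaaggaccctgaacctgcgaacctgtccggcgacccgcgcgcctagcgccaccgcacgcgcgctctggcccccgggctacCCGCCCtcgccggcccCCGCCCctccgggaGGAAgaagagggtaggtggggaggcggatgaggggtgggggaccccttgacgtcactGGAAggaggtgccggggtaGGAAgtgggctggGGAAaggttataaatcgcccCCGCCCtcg
Kdr held 2 GC boxes and 4 ETS cores, and Flt1 held 3 and 4. A GC box was found in 31.3% of all 32851 such windows and an ETS core in 92.7%. The TATA box TATAAA, not capitalised, was found in Flt1 and in 12.1% of windows, and its letters are not in the Kdr window. The hypoxia response core ACGTG, in 15.9% of windows, was in neither window. Matching letters describe the window only.

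Flt4 encodes VEGFR3, the receptor of lymphatic vessels and of sprouting vessels (chromosome 11, 49609263 to 49652739). Wild type held 7.09 ± 1.80 CPM, from 5.07 CPM in W4 to 9.83 CPM in W5 (SD, n = 5). The labelled knockout group held 8.13 ± 0.943 CPM, from 6.77 CPM in K2 to 9.33 CPM in K3. W5 was above and W1 and W4 below every library labelled knockout. The log2 fold change was 0.20, with a 95% interval of -0.14 to 0.54 and an edgeR adjusted p of 0.642.

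**Figure D4:**
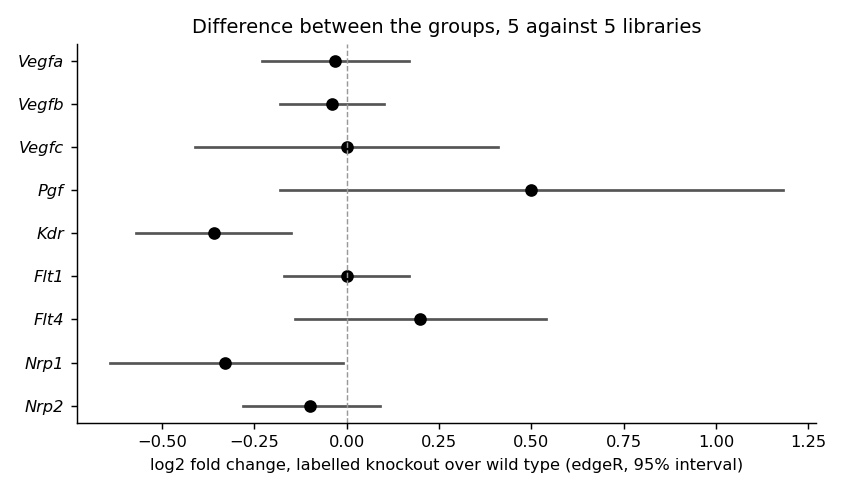
Log2 fold change of each gene, libraries labelled knockout over wild type, with its 95% interval from edgeR. The intervals of Kdr and Nrp1 lie below 0 before adjustment over all genes, and the other 7 include 0.

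The neuropilins Nrp1 and Nrp2 are co-receptors for VEGF-A and VEGF-C, and both also bind class 3 semaphorins. Nrp1 (chromosome 8, 128358604 to 128503363) held 11.9, 13.6, 9.75, 8.22 and 9.74 CPM across W1 to W5. K1 to K5 held 8.31, 7.73, 10.9, 7.38 and 8.01 CPM. In 3 libraries labelled knockout Nrp1 lay below every wild-type library, while K1 and K3 lay inside the wild-type range. On the log2 scale Nrp1 differed by -0.33 ± 0.15 (SE), with a 95% interval of -0.64 to -0.01. Its unadjusted edgeR p was 0.0412 and its edgeR adjusted p 0.333. Over the alternatives the Nrp1 log2 fold change ran from -0.43 to -0.22, and none called it (adjusted p from 0.2 to 0.59). Nrp2 (chromosome 1, 62703285 to 62818695) stood at 28.2 ± 1.73 and 26.4 ± 3.10 CPM, a log2 fold change of -0.10 with a 95% interval of -0.28 to 0.09 (edgeR adjusted p = 0.687). Its lowest library was K2, at 23.1 CPM, and its highest K3, at 31.3 CPM, so both extremes lay in the labelled knockout group. An antisense gene overlaps Nrp2, with 0 to 12 reads a library against 819 to 1124 for Nrp2, and strand handling in the counting is unknown here. Gm37121 overlaps Nrp2 on the same strand, with 12 to 38 reads in wild-type libraries and 5 to 13 in libraries labelled knockout, and how shared reads were assigned is unknown too.

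The other ratios showed no difference past the threshold. Vegfa over Vegfb was 1.14 in wild type and 1.15 in libraries labelled knockout (geometric means per exon length). Vegfa over the sum of Kdr and Flt1, ligand against receptors, was 0.982 and 1.14, and Nrp1 over Nrp2 was 0.450 and 0.386. Vegfa over Pgf was 145 and 110. The exact two-sided permutation p values of these 4 ratios were 0.929, 0.294, 0.0714 and 0.357, with adjusted p of 0.929, 0.5, 0.167 and 0.5.

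Kdr, Flt1 and Flt4 are known vessel genes, though Kdr need not come from vessels alone, so they were set beside 22 endothelial markers. Of these, 19 had a positive log2 fold change, with a median of 0.18 beside 0.0018 for all genes, and 1 rose (0.859% of all genes were called higher). At an unadjusted edgeR p under 0.05 there were 6 of the 22, against 13.8% of all genes, all with positive log2 fold changes, and DESeq2 called 1. That gene was Robo4, a guidance receptor of endothelial cells, at 3.47 ± 0.480 CPM in wild type against 5.26 ± 0.488 CPM (SD, n = 5; log2 difference 0.60 ± 0.14 SE, edgeR adjusted p = 0.0382). Its call was lost in 9 of the 18 alternatives, among them each fit without 1 of W1, W3, W4, W5, K2, K3, K4 or K5 and the fit without W5 and K5 (adjusted p over all alternatives from 0.00171 to 0.140). The tight junction gene Cldn5 had a log2 fold change of 0.32 and the adhesion gene Pecam1 one of 0.29, with edgeR adjusted p of 0.300 and 0.188. None of the 22 markers had a log2 fold change as low as that of Kdr. This depends on which vessel genes the list holds. Plvap, a vessel gene counted below among VEGF-induced genes, had a lower one, at -0.48 (edgeR adjusted p = 0.180).

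**Figure D5:**
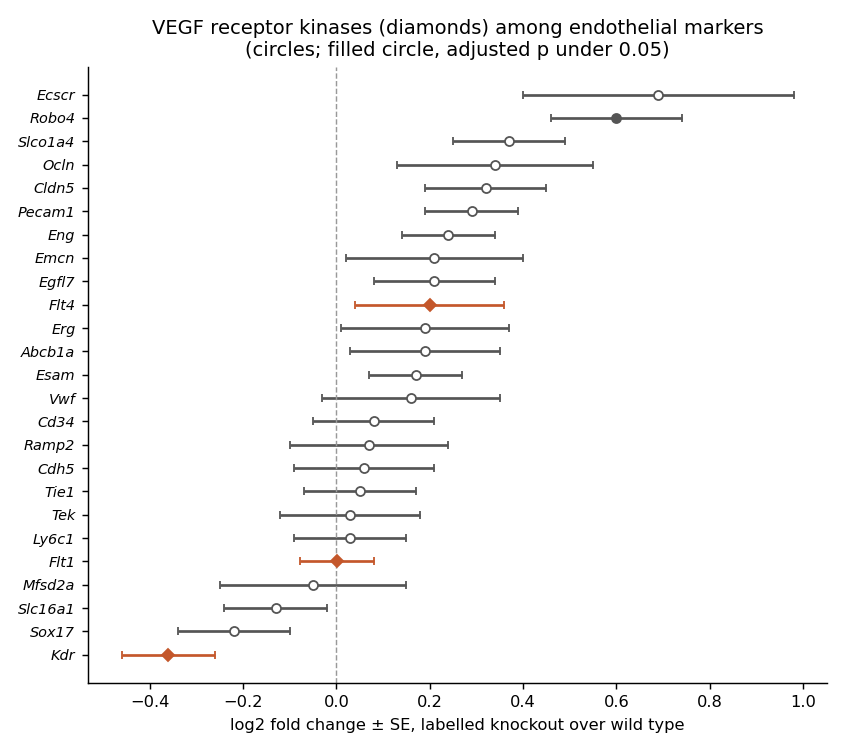
Log2 fold change ± SE, libraries labelled knockout over wild type, of 22 endothelial markers (circles, filled where the adjusted p was under 0.05) and of Kdr, Flt1 and Flt4 (diamonds). Kdr, at -0.36, is the lowest of the genes shown, Flt1 lies near 0 and Robo4 is the filled circle at 0.60.

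Kdr was also taken relative to the summed CPM of the endothelial markers. W1 to W5 had ratios of 0.409, 0.458, 0.519, 0.575 and 0.508. K1 to K5 had ratios of 0.358, 0.413, 0.429, 0.336 and 0.365, of which K2 and K3 lay above W1 alone. The log2 difference was -0.37, with an exact two-sided permutation p of 0.0238 and an adjusted p of 0.111. The monocarboxylate transporter Slc16a1, which other retinal cells also express, supplied more than any other marker, at 275 ± 36.5 CPM of a summed 470 ± 71.6 CPM in wild type. Without Slc16a1, the wild-type marker sum was 195 ± 35.4 CPM, against 223 ± 9.09 CPM in the labelled knockout group (SD, n = 5). W2, at 257 CPM, lay above every library labelled knockout, at 212 to 236 CPM. This sum differed by 0.21 on the log2 scale (exact permutation p = 0.0873), and that difference enters any ratio to it. Kdr relative to that sum ran from 0.998 to 1.39 in wild type and from 0.742 to 0.863 in libraries labelled knockout, so the groups did not overlap. The log2 difference was -0.56, with an exact permutation p of 0.00794, the smallest that 5 against 5 libraries allow, and an adjusted p of 0.0556. Flt1 relative to the same sum differed by -0.20 on the log2 scale (exact permutation p = 0.0397, adjusted 0.0926), and by -0.02 with Slc16a1 kept.

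Per exon length Kdr and Flt1 were abundant for vessel genes. Kdr is also known from retinal neurons, so its level need not come from vessels alone. Only Slc16a1, at 59.5 RPKM, had a higher level than Kdr among the 22 endothelial markers, and only Slc16a1 and Cldn5, at 15.9 RPKM, a higher one than Flt1. Pecam1 and the VE-cadherin gene Cdh5 each stood at 2.16 RPKM, against 22.7 RPKM for Kdr. Markers of pigment epithelium and choroid, tissue next to the retina that also holds vessels, varied widely. Their 11 markers, none at 0, summed to 41.5 to 529 CPM for wild type and to 230 to 413 CPM for the labelled knockout group. The extremes were W2, at 529 CPM, and W5, at 41.5 CPM, in which Kdr stood at 272 and 230 CPM. Their part in the difference in Kdr was not tested.

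No member followed the endothelial marker sum across the 10 libraries past the threshold, over 9 relations tested. Vegfa came nearest, with a negative relation, a Pearson r of -0.80 (permutation p = 0.00627, adjusted 0.0564) and a Spearman rho of -0.61 (permutation p = 0.0677, adjusted 0.528). Without W2 and K1, the 2 libraries farthest from the median marker sum, r was -0.40, so the relation rests on those libraries. After subtracting the group means, r was -0.80 (permutation p = 0.00761, adjusted 0.0685). For Kdr r was 0.30 and rho 0.30 (permutation p = 0.405 and 0.408, adjusted 0.595 and 0.528), and for Flt1 r was 0.47 and rho 0.31 (permutation p = 0.173 and 0.391, adjusted 0.369 and 0.528). Without Slc16a1 in the marker sum, r was -0.74 for Vegfa, -0.07 for Kdr and 0.65 for Flt1. Their adjusted permutation p values were 0.122, 0.999 and 0.202, and no relation passed.

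The 36 pairs of members were compared across libraries. Nrp1 and Nrp2 had a Pearson r of 0.82 (permutation p = 0.00391, adjusted 0.141) and a Spearman rho of 0.90 (permutation p = 0.00101, adjusted 0.0364) over 10 libraries. Without W1 and W2 r was 0.86, and after subtracting the group means it was 0.79 (permutation p = 0.0053, adjusted 0.0954). For Flt1 and Nrp1, r was 0.66 (permutation p = 0.0379, adjusted 0.359) and rho 0.47 (permutation p = 0.18, adjusted 0.917). After subtracting the group means, r for Flt1 and Nrp1 was 0.82 (permutation p = 0.00454, adjusted 0.0954). Without W2 and K3 the uncentred r of 0.66 for Flt1 and Nrp1 became 0.23, so the uncentred relation rests on those libraries. Nrp1 and Nrp2 lie on different chromosomes, and K3 was the highest library labelled knockout for both. No Pearson relation passed after adjustment over the 36 pairs.

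The genes whose pattern was most like that of each member were ranked by Pearson r over the 10 libraries with group means subtracted, among 13417 protein-coding genes. These are the highest of many values, and libraries share their depth and makeup, so they are given as a description. For Kdr they were the natriuretic peptide receptor gene Npr3 (r = 0.95), the neuronal adhesion gene Cntnap2 (0.94) and Acot9 (0.93). For Flt1 they were Ildr2 (0.98), Cyp2d22 (0.94) and Slc12a4 (0.94), and for Vegfa Taf15 (0.99), Azi2 (0.98) and Fancl (0.98). For Flt4 they included Gfap (0.95), the intermediate filament of astrocytes, beside 3425401B19Rik (0.98) and Chrna5 (0.95). For Nrp2 they were the netrin receptor gene Dcc (0.92) and the adhesion genes Ncam2 (0.91) and Tenm1 (0.90). The lists of Vegfb (Arpin, Oprl1 and Chadl), Vegfc (Ckap4, Tmem176a and Tgfa), Pgf (Asphd2, Dnase1l1 and Ccdc87) and Nrp1 (Syde2, Perp and Igfbp3) had r from 0.93 to 0.98.

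Downstream of the receptors, 1 of 37 tested signalling genes rose and 1 fell, beside 2.03% of all genes called, with a median log2 fold change of 0.01. At an unadjusted edgeR p under 0.05 there were 4 of the 37 (13.8% of all genes), and DESeq2 called 2 (3.70%). Pxn, the focal adhesion scaffold paxillin, stood at 52.3 ± 3.94 CPM in wild type and rose to 66.3 ± 4.02 CPM (by 0.34 on the log2 scale, edgeR adjusted p = 0.0175). Every library labelled knockout lay above every wild-type library for Pxn. Pik3r1, a regulatory subunit of PI3 kinase, stood at 125 ± 8.71 CPM in wild type and fell to 99.7 ± 8.23 CPM (-0.33 on the log2 scale, edgeR adjusted p = 0.0290), and its groups did not overlap either, as in 3.48% of all genes. The call of Pxn was lost in 3 of 18 alternatives, without K3, without W5 and K5, and with library totals alone (adjusted p up to 0.0924). That of Pik3r1 was lost in 8, each without W1, W3, W5, K2, K3, K4 or K5, or without W5 and K5 (adjusted p up to 0.133). Both genes act in many pathways and in most cell types.

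Of 16 tested genes that VEGF is known to induce in endothelial cells, 1 fell, 0 rose and 15 did not pass (median log2 fold change -0.01). Over all genes, 1.17% were called lower and 0.859% higher. At an unadjusted edgeR p under 0.05 there were 6 of the 16, against 13.8% of all genes, and DESeq2 called 2, Trib1 and Cxcr4, against 3.70%. Trib1, a pseudokinase gene, stood at 63.1 ± 6.38 CPM in wild type and fell to 48.9 ± 5.57 CPM (-0.37 on the log2 scale, edgeR adjusted p = 0.0448). That call was lost in 10 of 18 alternatives, with limma-voom, without W2, W3, W4, W5, K1, K3, K4 or K5, and without W5 and K5 (adjusted p up to 0.210). The other 5 of those 6 went in both directions. The chemokine receptor gene Cxcr4, which microglia also express, stood at 0.769 ± 0.283 and 1.68 ± 0.496 CPM (log2 fold change 1.12, edgeR adjusted p = 0.0519, DESeq2 adjusted p = 0.00884). Hlx, at a low wild-type mean of 0.206 CPM, and Nrarp differed by 1.14 and 0.37 on the log2 scale. Plvap, a component of leaky vessel walls, and Egr3, at 0.592 to 3.94 CPM in wild type, differed by -0.48 and -0.84. The edgeR adjusted p of these 4 were 0.146, 0.327, 0.180 and 0.361. The 12 microglia and macrophage markers, none at 0, had a median log2 fold change of 0.25, with sums of 49.4 to 84.8 CPM in wild type and 70.0 to 75.6 CPM in the other group. Their part in the difference in Cxcr4 was not tested.

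Oxygen sensing, the main control of Vegfa, showed no called gene. None of 11 tested genes of the sensing machinery and none of 23 tested hypoxia-induced genes passed with edgeR or DESeq2, with 3 and 3 at an unadjusted edgeR p under 0.05 (13.8% of all genes). The lists share Egln3, which is in both counts. Hif1a, the oxygen-regulated subunit with the highest level per length of its list, stood at 554 ± 55.1 and 577 ± 80.2 CPM. Epas1, its relative in vessels and glia, stood at 220 ± 15.3 and 247 ± 22.2 CPM. Ldha, the highest of the hypoxia-induced list, stood at 1140 ± 153 and 1120 ± 126 CPM (SD, n = 5). The median log2 fold changes of the lists were -0.05 and 0.02.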

How the data were processed

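The data are RNA sequencing counts from 10 mouse retina libraries, grouped by the genotype label. Per the labels' protocols, retinas were frozen on dry ice, RNA was taken with Trizol and Illumina libraries were made. The authors deposited whole-number read counts per gene, not normalized. The submitters' processing notes name DESeq2 1.14, featureCounts 1.15.2, STAR 2.5.3a, FastQC, bcl2fastq and the build GRCm38.p5. Settings for strand, multi-mapping and overlaps are not given in the sources used here. A comparison of knockout with control stands in the same table, per the file headers. Its deposited log2 fold changes and deposited p-values are printed for the members only, and its deposited mean signal of scaled counts was not used.

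Genes were kept with filterByExpr (minimum count 10, minimum total 15), scaled with TMM factors (0.954 to 1.04) and tested with edgeR 4.0.16 glmQLFit and glmQLFTest, genotype being the only term. Adjusted p is Benjamini-Hochberg over all 18965 tested genes, and a gene was called under 0.05. The SE is the log2 fold change over the square root of F. The fit was tested on simulated data. CPM and RPKM use the TMM-scaled totals, and RPKM the merged exons of GENCODE M21 on GRCm38, where all 9 genes had the deposited coordinates. Coordinates printed for genes are the deposited ones. Promoter windows come from RefSeq, GRCm38.p6, matched by symbol for all 9 genes. Ratios were tested over the 252 splits of 5 against 5 libraries, and correlations with 100000 permutations. Alternatives were DESeq2 1.42.0, limma-voom (limma 3.58.1), other scalings and filters, leaving out each library, W5 with K5, longest transcript lengths and the endothelial list without Slc16a1. Replicate pairs differed by more than sampling noise, with a mean chi-square per gene of 10.9 to 46.9. At total counts of 30433373 to 38857374 a library, Pgf had the fewest reads of the 9 genes. Its coefficient of variation was 18.7% in wild type and 46.4% in libraries labelled knockout. Of each list the genes called are named, and where none was called the highest per length is named for some lists only. Of genes alike a member the 3 with the highest r at a mean of at least 1 CPM are named. Cldn5, Pecam1, Cdh5, Slc16a1, Epas1, Egln3, Cxcr4, Hlx, Nrarp, Plvap, Egr3, C1qb, Tyrobp and Sema3b were named after their values were seen. The members and lists were chosen with earlier results of these data known.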

Additional observations from a re-analysis of the deposited data

Results flagged for a closer look

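In groups of 5 libraries, 34 sets of values were checked for a library far from the others, and 3 were found, where chance gives about 1 in 20 sets. Nrp1 in K3 stood at 10.9 CPM, against 7.38 to 8.31 CPM in the other libraries labelled knockout. The ratio of Flt1 to Kdr in W1 was 0.54, where W2 to W5 had 0.374 to 0.403. The summed endothelial markers in W2 stood at 594 CPM, where the other 4 of that group had 407 to 455 CPM.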

How the results depend on the processing

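Over all genes, 163 were called higher and 222 lower. DESeq2 gave 314 and 388, no low-count filter 298 and 406, and leaving out W5 and K5 gave 107 higher. Leaving out single libraries gave 71 to 253 higher (253 without W2, 93 without K3, 71 without K4, 84 without K5) and 140 to 289 lower (140 without K4). Kdr was called with DESeq2 (-0.36, adjusted p = 0.0231), with no low-count filter (-0.36, 0.0287) and without W1 (-0.43, 0.0195), and its log2 fold change ran from -0.43 to -0.29 without single libraries. Members near 0 changed sign without single libraries: Vegfa ran from -0.11 to 0.01, Vegfb from -0.07 to 0.01, Vegfc from -0.09 to 0.15 and Flt1 from -0.04 to 0.06. With no low-count filter Vegfc was -0.0011 and Flt1 -0.0012, and without W5 and K5 Flt1 was -0.01. Pgf did not pass the filter of at least 1 CPM in 5 libraries and has no value there. Without single libraries the log2 ratio difference ran from 0.32 to 0.45 for Flt1 over Kdr and from -0.44 to -0.32 for Kdr over endothelial markers, both past the threshold only without W1. In both ratios W1 was the only wild-type library that overlapped the other group, so leaving it out separates the groups completely. The log2 ratio difference ran from -0.06 to 0.04 for Flt1 over endothelial markers and from -0.08 to 0.06 for Vegfa over Vegfb. Without Slc16a1 the r of Kdr with the endothelial markers was -0.07. With the longest transcript as length, Vegfc ranked 8, Nrp1 6 and Flt4 7. No member fell under the low-count filter, so the alternative planned for such members was not run. No paired analysis was possible because the labels carry no replicate numbers that the groups share. The causes of these changes were not tested.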

Other observations

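Vegfd, the remaining mouse VEGF ligand and not among the 9 genes, was barely detected. It had 7 to 27 reads a library, with 0.384 ± 0.154 CPM for wild type and 0.511 ± 0.216 CPM for the labelled knockout group (SD, n = 5; log2 fold change 0.40, edgeR adjusted p = 0.693).

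Other vessel signalling showed no gene called by edgeR. This held for 21 tested genes of angiopoietin, Notch and apelin signalling, 8 of the Norrin pathway of retinal vessels, 12 semaphorin and plexin genes and 9 anti-angiogenic genes, with 3, 1, 1 and 1 at an unadjusted edgeR p under 0.05 (13.8% of all genes). DESeq2, which called 3.70% of all genes, called Sema3b and Sparc in the last 2 lists and none in the others. Sema3b, a neuropilin ligand, stood at 11.1 ± 1.73 and 15.5 ± 2.23 CPM, with a log2 fold change of 0.48 (edgeR adjusted p = 0.0631). Sparc, a matrix protein that binds VEGF, stood at 255 ± 43.2 and 324 ± 29.5 CPM, with a log2 fold change of 0.35 (edgeR adjusted p = 0.127). Sema3f had the highest level per length among the semaphorins and plexins, at 48.0 RPKM, with a log2 fold change of 0.18.

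Marker lists of the other cells of the tissue were counted in the same way. No gene was called among 13 pericyte and mural, 12 Muller glia, 6 astrocyte, 10 horizontal and ganglion cell, 11 pigment epithelium and choroid, 3 lymphatic and 5 erythroid genes tested, with 2, 1, 0, 2, 0, 0 and 0 at an unadjusted edgeR p under 0.05 (13.8% of all genes) and 0 called by DESeq2. Their median log2 fold changes were 0.02, 0.03, 0.0019, -0.06, 0.14, -0.16 and 0.04. Of 12 microglia and macrophage markers 10 had a positive log2 fold change, with a median of 0.25, and 4 had an unadjusted edgeR p under 0.05. The 1 that rose (0.859% of all genes were called higher) was the complement gene C1qc (0.77 on the log2 scale, edgeR adjusted p = 0.0342). Its call was lost in 9 of 18 alternatives, without W1, W3, W4, W5, K2, K3, K4 or K5 and without W5 and K5 (adjusted p up to 0.105). DESeq2 called 3 of the 12, C1qc, C1qb and Tyrobp. Of 10 rod markers, with a median of -0.03 and 2 at an unadjusted edgeR p under 0.05, 1 fell, the arrestin gene Sag (log2 fold change -0.67, edgeR adjusted p = 0.00267). The call of Sag held in all 18 alternatives, and DESeq2 called the same 1 of the 10. The lymphatic list is not specific here, since its most abundant member, Prox1 at 206 ± 14.9 CPM in wild type, is also a gene of retinal neurons and glia.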
